A study of Mus musculus with 12 samples.

Results

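The 10 genes described here encode subunits and inhibitors of the transcription factor NF-κB, and were taken by their symbol in the array's annotation. The 6 genes grouped here as inhibitors were Nfkbia, Nfkbib, Nfkbid, Nfkbie, Nfkbiz and Tnfaip3, and the 4 subunit genes were Nfkb2, Rel, Rela and Relb. This grouping is by gene name, and no effect of any of them on NF-κB was measured. Each had 1 probe set, and together they were 10 of 18820 genes measured with Affymetrix Mouse Gene 1.1 ST arrays. All 12 arrays carried RNA of B lymphoma cells in primary culture from l-MYC;B1-8f mice (C57BL/6J x BALB/c), whose B cells carry a MYC transgene and an antigen receptor (BCR) from which Cre can cut the heavy chain. TAT-Cre, a cell-permeable form of that recombinase, had been given to every culture, whatever its group, so that BCR-negative and BCR-positive cells of a lymphoma grew side by side for 4 days. The 4 groups were BCR-negative cells with CHIR99021, an inhibitor of the kinase GSK3, BCR-negative cells without it, BCR-positive cells with CHIR99021 and BCR-positive cells without it. Lymphomas 2564, 2646 and 2676 each gave 1 array to every group (n = 3). The cells were sorted once BCR-negative cells had begun to be lost from the mixture, so a BCR-negative sample holds those still present, and neither population was grown alone.

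NF-κB proteins bind DNA as dimers of RelA, RelB, c-Rel, p50 and p52, the last of which is cut from the p100 protein that Nfkb2 encodes. In resting cells the IκB proteins hold these dimers in the cytoplasm, and signals from the BCR, CD40 or Toll-like receptors activate a kinase that marks IκB for destruction. Nfkbia, Nfkbie, Tnfaip3, Nfkb2, Rel and Relb are themselves textbook targets of NF-κB, which makes the inhibitors part of a feedback loop. In B cells the pathway is known for survival and for the response to antigen.

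Values are log2 expression made with RMA, and differences are means within lymphomas with their standard error (SE) from limma, n = 3 lymphomas. A gene is called higher or lower when its adjusted p over all 18820 genes is under 0.05. Ighv1-72, the variable segment that the deletable heavy chain is built from, checked the labels. Its signal in BCR-negative cells was 7.92% to 38.2% of that in BCR-positive cells over the 6 pairs of the same lymphoma and culture. In untreated cultures it was 31.8%, 38.2% and 10.3% in lymphomas 2564, 2646 and 2676, and with CHIR99021 15.0%, 18.2% and 7.92%. Treated against untreated BCR-negative cells differed in Ighv1-72 by -0.95 ± 0.331 (SE; limma, adjusted p = 0.149). The bearing of this on the other genes was not tested. Of 7 measured B-cell markers Cd79a, Cd79b, Pax5 and Ebf1 lay above the 95th percentile of gene means. Cd22 lay at percentile 87.9, Blk at 56.2 and Ms4a1 (CD20) at 6.71. The mean level of 7 T-cell markers lay between 4.18 and 4.30 on every array. That of 7 macrophage markers lay between 4.50 and 5.29. The highest single macrophage marker reached 7.83 in treated and 8.03 in untreated BCR-negative cells. In treated and untreated BCR-positive cells it reached 8.53 and 6.96. Markers of granulocytes (5), natural killer cells (5), stroma (5) and erythroid cells (2) averaged between 3.72 and 4.68. Of these 31 markers of other cells only Lyz2 was called in any comparison, and its value stands beside that result. With BCR loss in untreated cultures the macrophage marker Itgam was at 0.76 ± 0.261 (limma, adjusted p = 0.130). Of the 7 macrophage markers 4 were positive there, with a median of 0.02. Of the 5 natural killer markers 4 were positive, with a median of 0.03 and a highest value of 0.56. The part of these markers in the NF-κB values was not tested. The array medians averaged 4.82 ± 0.041 in CHIR99021-treated and 4.88 ± 0.054 in untreated BCR-negative cells, and 4.77 ± 0.063 in treated and 4.82 ± 0.028 in untreated BCR-positive cells (SD, n = 3 each). In a sorted bulk sample, fewer cells with a transcript and less of it per cell cannot be told apart.

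The first comparison asked what BCR loss did in untreated cultures. There 8 of the 10 genes were higher in BCR-negative cells, none was lower, and 2, Nfkbib and Rela, were not called. Over all genes 1.91% were called higher, 2.3% lower and 4.2% in either direction. The median difference over the 10 genes was 0.81, against -0.00 over all genes, and it was 0.54 in lymphoma 2564, 0.87 in 2646 and 0.81 in 2676. The inhibitors had a median of 1.02 with 5 of 6 called, and the subunits 0.49 with 3 of 4 called.

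**Figure D1:**
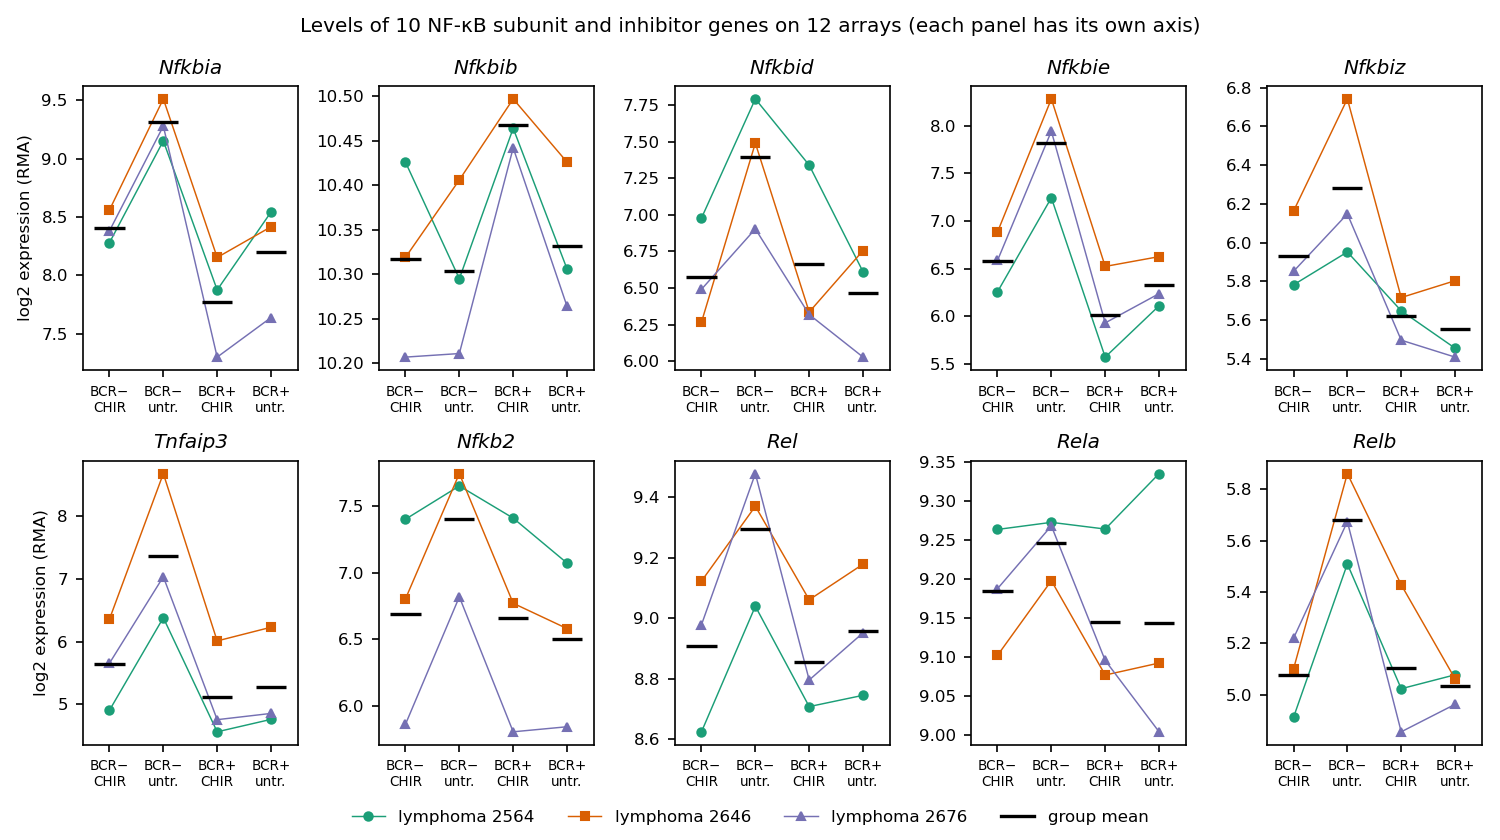
Log2 expression (RMA) of the 10 genes on the 12 arrays, with the 4 groups along each horizontal axis, 1 coloured symbol and line per lymphoma and a black bar at the group mean. For every gene but Nfkbib and Rela the untreated BCR-negative array was the highest of the 4 in every lymphoma. Rela varied by 0.33 and Nfkbib by 0.29 over all arrays.

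Tnfaip3 encodes A20, an enzyme that edits ubiquitin chains and shuts off signalling upstream of the IκB kinase. Its level was 6.38, 8.68 and 7.03 in untreated BCR-negative cells of lymphomas 2564, 2646 and 2676, against 4.76, 6.23 and 4.85 in untreated BCR-positive cells. Every BCR-negative value lay above every BCR-positive one, and lymphoma 2646 was highest in both groups. The difference was 2.09 ± 0.180, or 4.25-fold (limma, adjusted p = 0.00149).

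Nfkbie encodes IκBε, an inhibitor that holds c-Rel and RelA dimers. It stood at 7.24, 8.28 and 7.94 in BCR-negative cells and at 6.11, 6.63 and 6.24 in BCR-positive cells. The groups did not overlap, and the difference of 1.50 ± 0.106 (2.82-fold) had the smallest p of the 10 genes (limma, adjusted p = 0.000577). Nfkbia, which encodes IκBα, the inhibitor that is rapidly destroyed and made anew when the pathway is switched on, was 9.15, 9.51 and 9.28 in BCR-negative cells, against 8.54, 8.42 and 7.64 in BCR-positive cells. The BCR-negative values lay close together while lymphoma 2676 was low among BCR-positive cells, so that the difference in that lymphoma, 1.64, was larger than the 0.61 in 2564. The mean difference was 1.12 ± 0.179 (limma, adjusted p = 0.0189).

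Nfkbid and Nfkbiz encode the atypical IκB proteins IκBNS and IκBζ, which act in the nucleus and bind p50. Nfkbid was 7.79, 7.49 and 6.90 in BCR-negative cells and 6.61, 6.76 and 6.03 in BCR-positive cells, a difference of 0.93 ± 0.194 (limma, adjusted p = 0.0338). Nfkbiz was 5.95, 6.74 and 6.15 in BCR-negative cells and 5.46, 5.80 and 5.41 in BCR-positive cells, a difference of 0.72 ± 0.106 (limma, adjusted p = 0.0153). Neither gene's groups overlapped. Nfkbib, which encodes IκBβ, was 10.30, 10.41 and 10.21 in BCR-negative cells and 10.31, 10.43 and 10.26 in BCR-positive cells. It differed by -0.03 ± 0.0589 and did not pass (limma, adjusted p = 0.870, 95% interval -0.16 to 0.10).

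Among the subunits Nfkb2 had the smallest p. Its level was 7.65, 7.74 and 6.82 in BCR-negative cells of lymphomas 2564, 2646 and 2676, against 7.07, 6.58 and 5.85 in BCR-positive cells. The groups overlapped, with lymphoma 2676 low in both, and each lymphoma's own difference was positive (0.58, 1.16 and 0.97). The mean was 0.91 ± 0.139, or 1.87-fold (limma, adjusted p = 0.0170).

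Relb, the partner of p52 in the alternative NF-κB pathway, was 5.51, 5.86 and 5.67 in BCR-negative cells, against 5.08, 5.06 and 4.96 in BCR-positive cells. These groups did not overlap, and the difference was 0.65 ± 0.117 (limma, adjusted p = 0.0252). Rel, which encodes c-Rel, was 9.04, 9.37 and 9.48 in BCR-negative cells, against 8.74, 9.18 and 8.95 in BCR-positive cells. Its groups overlapped, and its difference was the smallest of those called, 0.34 ± 0.0770 or 1.26-fold (limma, adjusted p = 0.0435). Rela, which encodes the widely expressed subunit p65, was 9.27, 9.20 and 9.27 in BCR-negative cells and 9.33, 9.09 and 9.004 in BCR-positive cells. It had a difference of 0.10 ± 0.0635 with 1 lymphoma of opposite sign and did not pass (limma, adjusted p = 0.429, 95% interval -0.04 to 0.24).

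**Figure D2:**
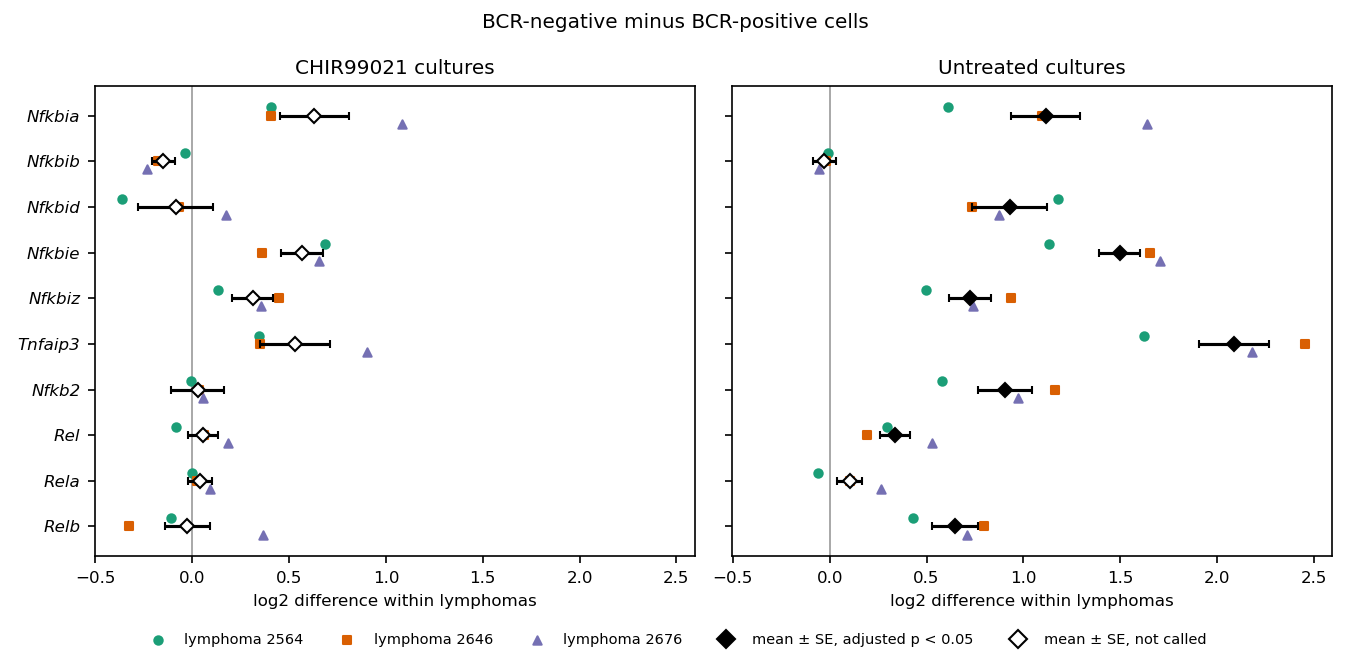
Log2 difference between BCR-negative and BCR-positive cells of the same lymphoma, with CHIR99021 cultures left and untreated cultures right. Coloured symbols are the 3 lymphomas and diamonds the limma mean ± SE, filled where the adjusted p is under 0.05: in untreated cultures 8 diamonds are filled, from 0.34 (Rel) to 2.09 (Tnfaip3), and in CHIR99021 cultures none.

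The number of called genes rested on the lymphoma block and on single lymphomas. In limma it was 0 of 10 without the block, where 5 of all genes were called and 1232 had an unadjusted p under 0.05, and 4 with lymphoma as a random block (Nfkbia, Nfkbie, Nfkbiz and Tnfaip3), where none of the 4 subunit genes was called. It was 0 when only the 6 arrays compared were fitted, where no gene was called and 3527 had an unadjusted p under 0.05. Without lymphoma 2646 it was 0, with no gene called and 2147 at an unadjusted p under 0.05, and without 2676 it was 2. It was 3 without the untreated BCR-negative array of 2646 and 5 without that of 2676, and 3 and 2 without the untreated BCR-positive arrays of 2646 and 2676. Over the 15 fits that left out a lymphoma or an array the difference of Tnfaip3 stayed between 1.86 and 2.32 and that of Nfkbie between 1.39 and 1.68, each called in 14 of them. Of the subunits Nfkb2 was called in 10, Relb in 9 and Rel in 4.

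The sequence before the start sites was read for the genes that moved together and for Nfkbib and Rela, which were not called. RefSeq promoters of GRCm38.p6 were at hand for 8 of the 10 genes, and the 250 bases before each start site were searched on both strands for the κB consensus, GGG followed by a purine, any pair of bases, a pair of pyrimidines and CC. At least 1 match was found for 6 of the 8 genes, Nfkbia, Nfkbid, Nfkbie, Tnfaip3, Nfkb2 and Rel, and none for Nfkbib and Rela. Of 14749 genes on the array with such a sequence 9.51% had a match, and of all 32851 windows 7.25%. Nfkbiz and Relb were not searched. A match is a string of letters and not a measured binding site. Nfkbia, Nfkbie, Tnfaip3, Nfkb2 and Rel were named above as textbook targets, so their matches are a description and not separate evidence. Whether a match bears on the differences was not tested. The windows are printed on the gene's own strand, 5′ to 3′, ending at the base before the start site, with matches in capitals. Overlapping matches run together.
Tnfaip3 (chr10:19015411-19015660, minus strand): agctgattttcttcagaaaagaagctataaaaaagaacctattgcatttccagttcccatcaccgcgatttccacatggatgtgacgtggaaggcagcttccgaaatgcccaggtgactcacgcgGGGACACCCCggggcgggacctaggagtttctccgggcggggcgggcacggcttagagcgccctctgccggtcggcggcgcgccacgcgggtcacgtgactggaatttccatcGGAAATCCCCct
Nfkbie (chr17:45555450-45555699, plus strand): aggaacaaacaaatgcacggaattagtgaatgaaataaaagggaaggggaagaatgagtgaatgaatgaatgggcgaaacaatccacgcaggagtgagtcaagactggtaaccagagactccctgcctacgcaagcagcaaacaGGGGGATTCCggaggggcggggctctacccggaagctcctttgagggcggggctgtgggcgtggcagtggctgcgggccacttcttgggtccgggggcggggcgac
Nfkbia (chr12:55492648-55492897, minus strand): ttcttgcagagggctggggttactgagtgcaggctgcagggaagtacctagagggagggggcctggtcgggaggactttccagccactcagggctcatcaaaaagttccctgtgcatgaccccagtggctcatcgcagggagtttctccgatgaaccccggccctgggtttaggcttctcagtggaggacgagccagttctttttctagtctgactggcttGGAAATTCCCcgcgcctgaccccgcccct
Nfkb2 (chr19:46304487-46304736, plus strand): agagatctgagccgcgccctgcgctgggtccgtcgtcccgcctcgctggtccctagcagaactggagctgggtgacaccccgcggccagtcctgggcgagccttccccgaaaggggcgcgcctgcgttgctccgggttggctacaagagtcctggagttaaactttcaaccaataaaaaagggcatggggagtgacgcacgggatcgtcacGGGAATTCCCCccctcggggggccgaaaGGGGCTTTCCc
Nfkbib (chr7:28766645-28766894, minus strand): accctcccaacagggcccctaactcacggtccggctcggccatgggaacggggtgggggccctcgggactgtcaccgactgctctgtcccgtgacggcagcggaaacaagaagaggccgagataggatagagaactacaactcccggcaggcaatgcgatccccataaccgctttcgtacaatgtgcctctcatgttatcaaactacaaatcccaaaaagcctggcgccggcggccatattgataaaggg
Rela (chr19:5637291-5637540, plus strand): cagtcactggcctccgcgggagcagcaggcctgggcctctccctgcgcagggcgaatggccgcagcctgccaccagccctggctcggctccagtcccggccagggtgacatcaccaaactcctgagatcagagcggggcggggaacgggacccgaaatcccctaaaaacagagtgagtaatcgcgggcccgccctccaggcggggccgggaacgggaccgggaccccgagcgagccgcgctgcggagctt
Tnfaip3 held 2 separate matches, GGGACACCCC and, read on the opposite strand, GGGGATTTCC, which begins 12 bases before the start site. Nfkbie held GGGGGATTCC, and Nfkbia held GGGAATTTCC on the opposite strand, 29 to 20 bases before the start site. In the first of 3 windows of Nfkb2, the one printed, GGGAATTCCC overlapped GGGGAATTCC on the opposite strand, and GGGGCTTTCC began 11 bases before the start site. The other start sites of Nfkb2 had GGGACATTCC and GGGACTTTCC, and Rel had GGGAAATCCC and the overlapping GGGGATTTCC. The second of 3 windows of Nfkbid held GGGACTTCCC and GGGGAATTCC. The Tnfaip3 window that is not printed had no consensus match. A looser pattern, GGG, any 5 bases and CC on either strand, was in 57.3% of the genes. Rela held 2 matches to the looser pattern and Nfkbib none, and each of the other members searched held at least 1.

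The next comparison asked what CHIR99021 did to BCR-negative cells. Of the 10 genes 6 were lower in treated than in untreated BCR-negative cells (Tnfaip3, Nfkbie, Nfkbia, Nfkb2, Relb and Rel), none was higher, and 4 were not called. Over all genes 1.76% were called lower, 1.91% higher and 3.68% in either direction. The median difference was -0.66 over the 10 genes, against 0.01 over all genes, and -0.51, -0.85 and -0.48 in lymphomas 2564, 2646 and 2676. The untreated BCR-negative arrays are those of the comparison before, so an array that is high there makes both differences large, and the signs are not separate evidence.

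Tnfaip3 was 4.90, 6.36 and 5.65 in treated BCR-negative cells, against the 6.38, 8.68 and 7.03 of untreated ones. Each treated value was below every untreated one, and the signal fell to 30.2% (-1.73 ± 0.180; limma, adjusted p = 0.00404). Nfkbie was 6.26, 6.88 and 6.59 in treated BCR-negative cells, against 7.24, 8.28 and 7.94 in untreated ones, and fell to 42.2% (-1.25 ± 0.106; limma, adjusted p = 0.00188). Neither gene's groups overlapped. Nfkbia was 8.28, 8.56 and 8.38 in treated BCR-negative cells, against 9.15, 9.51 and 9.28 in untreated ones. Its differences of -0.87, -0.95 and -0.90 were nearly the same in the 3 lymphomas, with a mean of -0.91 ± 0.179 (limma, adjusted p = 0.0292).

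The 3 subunit genes that fell had smaller differences than these inhibitors. Nfkb2 was 7.40, 6.80 and 5.86 in treated BCR-negative cells, against 7.65, 7.74 and 6.82 in untreated ones (-0.72 ± 0.139; limma, adjusted p = 0.0280). In lymphoma 2564 its difference was -0.25, smaller than the -0.94 and -0.96 in 2646 and 2676. Relb was 4.91, 5.10 and 5.22 in treated cells, against 5.51, 5.86 and 5.67 in untreated ones (-0.60 ± 0.117; limma, adjusted p = 0.0279), and its groups did not overlap. Rel was 8.62, 9.12 and 8.98 in treated cells, against 9.04, 9.37 and 9.48 in untreated ones (-0.39 ± 0.0770; limma, adjusted p = 0.0296), and its groups overlapped.

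Nfkbid lay just above the threshold (-0.82 ± 0.194; limma, adjusted p = 0.0514), with 6.98, 6.27 and 6.49 in treated and 7.79, 7.49 and 6.90 in untreated BCR-negative cells. It passed after dim genes were left out (limma, adjusted p = 0.0406), after array medians were subtracted (limma, adjusted p = 0.0402) and with a trended, robust variance (limma, adjusted p = 0.0455). Over the 15 fits that left out a lymphoma or an array its adjusted p in limma lay between 0.0313 and 0.203, and 4 were under the threshold. Nfkbiz was at -0.35 ± 0.106 (limma, adjusted p = 0.102), Rela at -0.06 ± 0.0635 (limma, adjusted p = 0.703) and Nfkbib at 0.01 ± 0.0589 (limma, adjusted p = 0.949, 95% interval -0.12 to 0.14).

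The count of 6 also rested on the block and on single samples. In limma it was 0 without the block, where 3 of all genes were called and 1070 had an unadjusted p under 0.05, 1 (Nfkbie) with lymphoma as a random block and 2 (Nfkbie and Nfkbia) in a fit of the 6 arrays compared. It was 3 without lymphoma 2564, 0 without 2646, where no gene was called and 2223 had an unadjusted p under 0.05, and 3 without 2676. It was 2, Nfkbie and Tnfaip3, without the treated BCR-negative array of 2564 or 2646 or the untreated one of 2646 or 2676. In the same comparison Lyz2, a macrophage gene whose mean lay at percentile 19.8, was called higher (0.46 ± 0.100; limma, adjusted p = 0.0389) and Cd79b lower (-0.33 ± 0.0604; limma, adjusted p = 0.0240). The other 6 macrophage markers were not called, and 3 of the 7 were positive. Of the B-cell markers the other 6 were not called either, but all 7 were negative, with a median of -0.33 (-0.61, -0.18 and -0.07 in lymphomas 2564, 2646 and 2676). Among them were Ebf1 (-0.77 ± 0.264), Blk (-0.56 ± 0.277) and Pax5 (-0.42 ± 0.113), which were picked out after their values were seen. In BCR-positive cells all 7 were negative with CHIR99021 too, with a median of -0.30. The part of these changes in the NF-κB values was not tested.

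**Figure D3:**
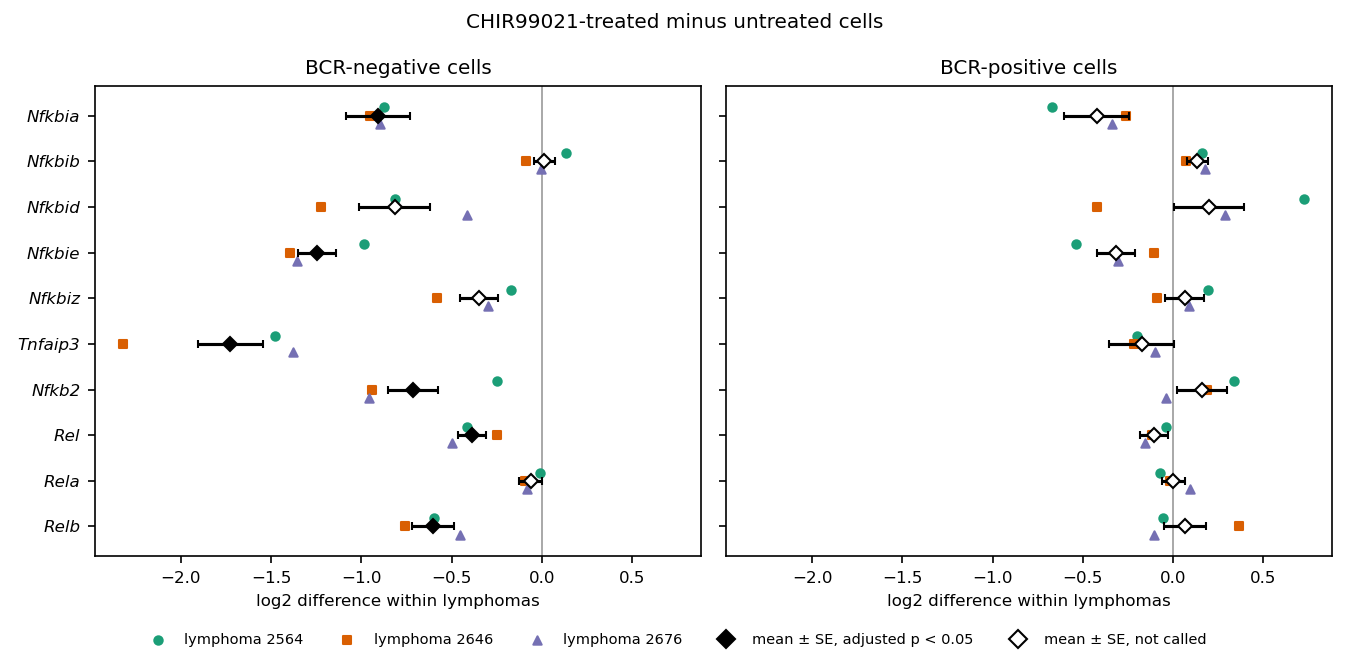
Log2 difference between CHIR99021-treated and untreated cells of the same lymphoma, BCR-negative cells left and BCR-positive cells right. Coloured symbols are the 3 lymphomas and diamonds the limma mean ± SE, filled where the adjusted p is under 0.05: in BCR-negative cells 6 are filled, from -1.73 (Tnfaip3) to -0.39 (Rel), and in BCR-positive cells none.

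In BCR-positive cells no member was called for CHIR99021 in limma, and 3 had an unadjusted p under 0.05 (Nfkbia, Nfkbib and Nfkbie), where 10% of all genes did. Of all genes 0.00531% were called higher, 0.0691% lower and 0.0744% in either direction. Differences ran from -0.42 ± 0.179 for Nfkbia to 0.20 ± 0.194 for Nfkbid, with a median of 0.03. Nfkbia was 7.88, 8.15 and 7.30 in treated BCR-positive cells, against 8.54, 8.42 and 7.64 in untreated ones, and was lower with the inhibitor in each lymphoma (limma, adjusted p = 0.465). The same sign in 3 lymphomas held for Nfkbie, Nfkbib, Tnfaip3 and Rel too, with small differences. Nfkbie was 5.57, 6.52 and 5.93 in treated BCR-positive cells, against 6.11, 6.63 and 6.24 in untreated ones (-0.32 ± 0.106; limma, adjusted p = 0.330). Nfkbib was 10.46, 10.50 and 10.44 in treated cells, against 10.31, 10.43 and 10.26 in untreated ones (0.14 ± 0.0589; limma, adjusted p = 0.481), and its groups did not overlap. Tnfaip3 was 4.56, 6.01 and 4.75 in treated cells, against 4.76, 6.23 and 4.85 in untreated ones (-0.17 ± 0.180, 95% interval -0.58 to 0.23). For Nfkb2 (0.16 ± 0.139), Relb (0.07 ± 0.117) and Rela (0.00 ± 0.0635) the lymphomas did not all share a sign, and Rel (-0.10 ± 0.0770) was negative in all 3.

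With CHIR99021 in both populations, BCR loss called none of the 10 genes in limma, where 0.0106% of all genes were called higher, 0.00531% lower and 0.0159% in either direction. At an unadjusted p under 0.05 there were 5 of the 10, against 8.65% of all genes. Of these, 4 were higher (Nfkbia, Nfkbie, Nfkbiz and Tnfaip3) and 1 was lower (Nfkbib). The adjusted p depends on all genes of a comparison, so the counts of called genes are not on 1 scale. Nfkbie was not called here at an unadjusted p of 0.00037 in limma, while Rel was called in untreated cultures at 0.0015. Treated BCR-negative cells had 8.28, 8.56 and 8.38 of Nfkbia, against 7.88, 8.15 and 7.30 in treated BCR-positive cells. These groups did not overlap, and the difference was 0.63 ± 0.179 (limma, adjusted p = 0.473), with 0.40, 0.41 and 1.08 in lymphomas 2564, 2646 and 2676. Tnfaip3 was at 0.53 ± 0.180 (limma, adjusted p = 0.521), with 0.34, 0.35 and 0.90. Lymphoma 2676 was the highest for both genes, and without it the differences were 0.41 for Nfkbia and 0.35 for Tnfaip3. Without its BCR-negative array alone, Tnfaip3 was at 0.34. Nfkbie (0.57 ± 0.106; limma, adjusted p = 0.385) and Nfkbiz (0.31 ± 0.106; limma, adjusted p = 0.522) were also positive in each lymphoma. The other genes lay closer to 0. Nfkb2 was at 0.03 ± 0.139, Relb at -0.03 ± 0.117, Rel at 0.05 ± 0.0770, Rela at 0.04 ± 0.0635 and Nfkbid at -0.09 ± 0.194, while Nfkbib was at -0.15 ± 0.0589. The median was 0.42 over the inhibitors and 0.03 over the subunits.

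Whether the effect of BCR loss differed between the cultures was asked directly, by the effect with CHIR99021 minus the effect without it. No gene of the 18820 passed in limma, the 10 members included (0% of all genes called, adjusted p = 0.830 to 0.985 for the members). At an unadjusted p under 0.05 there were 7 of the 10 members, all negative, against 5.26% of all genes. The mean difference of effects was -1.55 ± 0.255 for Tnfaip3 (95% interval -2.12 to -0.98), with -1.28, -2.10 and -1.28 in lymphomas 2564, 2646 and 2676. For Nfkbie it was -0.93 ± 0.150, with -0.45, -1.29 and -1.05 in the 3 lymphomas. Lymphoma 2646 had the most negative value for both genes. For Nfkbid it was -1.02 ± 0.275, and there lymphoma 2564 was the most negative (-1.54, -0.80 and -0.70). For Nfkb2 it was -0.88 ± 0.196 (-0.59, -1.13 and -0.92) and for Relb -0.67 ± 0.165 (-0.54, -1.13 and -0.35). Nfkbiz (-0.41 ± 0.150), Rel (-0.28 ± 0.109) and Nfkbia (-0.48 ± 0.253) were also negative in every lymphoma, as was Nfkbib (-0.12 ± 0.0833), and Rela was not. The intervals are each gene's own and are not adjusted for the number of genes.

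The last comparison set BCR-negative cells given CHIR99021 against BCR-positive cells left without it, so that the receptor and the treatment differed together. No member was called in limma (0.0159% of all genes were), and 2 had an unadjusted p under 0.05, against 8.74% of all genes. Tnfaip3 was at 0.36 ± 0.180 (limma, adjusted p = 0.628, 95% interval -0.04 to 0.76), with 4.90, 6.36 and 5.65 in treated BCR-negative cells, against 4.76, 6.23 and 4.85 in untreated BCR-positive cells. Lymphomas 2564 and 2646 differed by 0.15 and 0.13, and 2676 by 0.80. Nfkbie was at 0.25 ± 0.106 and Nfkbiz at 0.38 ± 0.106, both positive in all 3 lymphomas. The subunits lay between -0.05 (Rel) and 0.19 (Nfkb2). Nfkbia was at 0.21 ± 0.179, with -0.26 in lymphoma 2564 and 0.74 in 2676.

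**Figure D4:**
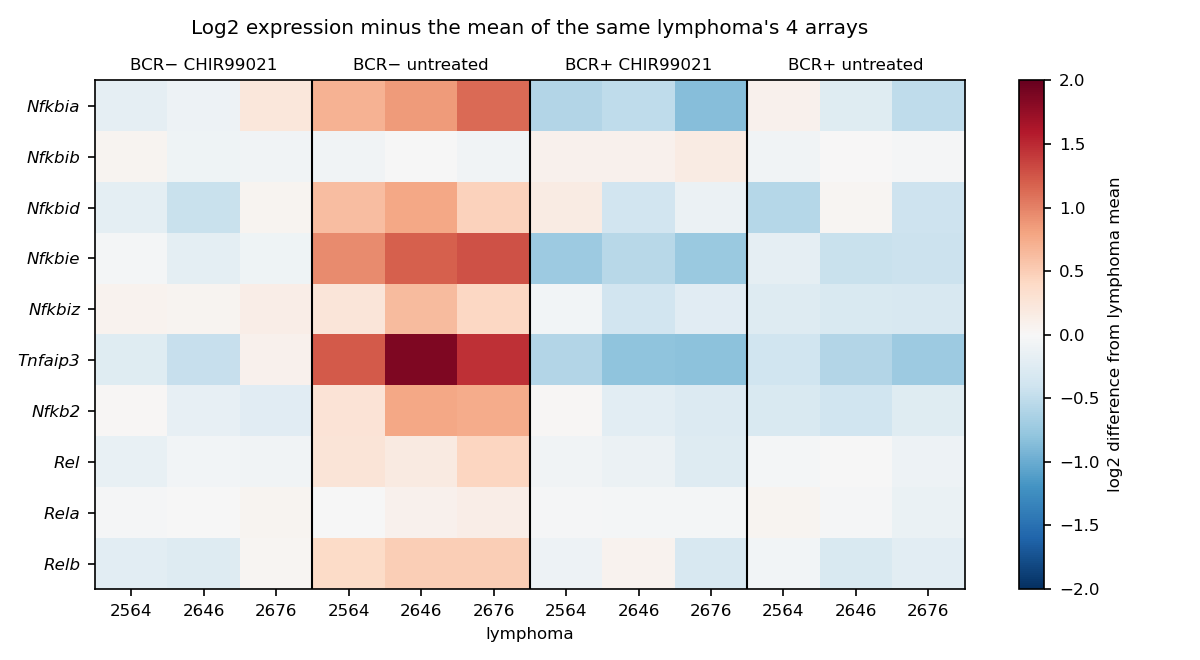
Log2 expression of the 10 genes on the 12 arrays after the mean of the same lymphoma's 4 arrays was subtracted, red above and blue below that mean, with BCR-negative cells left and BCR-positive cells right. The untreated BCR-negative columns are red for all genes but Nfkbib and Rela, whose rows are nearly white.

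The genes differed in how much of their spread lay between lymphomas. For Nfkbie 80.7% of the sum of squares over the 12 arrays lay between the 4 groups and 17.4% between lymphomas, and for Nfkbia 79.7% and 11.2%. For Nfkb2 the order was turned, with 27.8% between groups and 67.4% between lymphomas, whose means were 7.38 in 2564, 6.98 in 2646 and 6.08 in 2676. It was turned for Rela too, with 17.7% between groups and 55.95% between lymphomas, and Rel was nearly even (47.2% and 45.0%). Tnfaip3 had the widest range, 4.12 over the 12 arrays, and its lymphoma means were 5.15, 6.82 and 5.57. Rela varied by 0.33 in all and Nfkbib by 0.29. The lymphoma with the highest mean was 2646 for Nfkbia, Nfkbib, Nfkbie, Nfkbiz, Tnfaip3, Rel and Relb, and 2564 for Nfkbid, Nfkb2 and Rela.

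After each lymphoma's mean was subtracted, Tnfaip3 followed Nfkbie at r = 0.978 and Nfkb2 at r = 0.914 across the 12 arrays, and Nfkbia followed Nfkbie at r = 0.963. Nfkbib ran against Nfkbia at r = -0.693. These coefficients describe arrays that share lymphomas and cultures, and carry no test. Outside the 10 genes the patterns most like that of Nfkbie were those of Lima1 (r = 0.982), which encodes an actin-binding protein, Wdfy3 (r = 0.981), which encodes an autophagy adaptor, and Sash3 (r = 0.980), which encodes a lymphocyte adaptor. In BCR-negative against BCR-positive cells of untreated cultures they were at 1.46 ± 0.0970, 0.77 ± 0.0654 and 0.49 ± 0.0675 (SE), in that order. Most like Nfkb2 were the kinase gene Pim2 (r = 0.977), Socs1 (r = 0.958), which encodes an inhibitor of cytokine signalling, and Taf4b (r = 0.945), which encodes a part of the general transcription factor TFIID. They were at 0.88 ± 0.130, 0.60 ± 0.132 and 0.63 ± 0.104 in that comparison. Being chosen for their likeness on the same arrays, these genes are a description.

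Other genes of the pathway moved in smaller numbers. Nfkb1, Chuk and Traf3 were not analysed here. Of 13 kinases and adaptors that carry the signal from the BCR to the IκB kinase, Traf6, a ubiquitin ligase, rose in BCR-negative cells of untreated cultures (0.34 ± 0.0731; limma, adjusted p = 0.0359) and 12 were not called, with a list median of 0.09. Of 9 genes of the alternative pathway Birc3, which encodes a ubiquitin ligase of the TNF receptor complex, rose (0.48 ± 0.104; limma, adjusted p = 0.0389), and the median was 0.04. Of 13 partners of A20 and other negative regulators 2 rose, Zc3h12a (0.43 ± 0.0857; limma, adjusted p = 0.0312), which encodes the ribonuclease regnase-1, and Tax1bp1 (0.26 ± 0.0588; limma, adjusted p = 0.0444), which encodes an A20-binding adaptor. The genes called were 7.69%, 11.1% and 15.4% of these lists, in that order, beside the 1.91% of all genes called higher. Among 3 other NF-κB and IκB proteins none was called, and the repressor gene Nkrf had the smallest p (-0.21 ± 0.0826; limma, adjusted p = 0.177).

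Of 32 known target genes of NF-κB outside the 10 genes, 3 rose with BCR loss in untreated cultures and none fell. They were Irf1 (0.88 ± 0.189; limma, adjusted p = 0.0363), a regulator of interferon-response genes, Ier3 (0.80 ± 0.104; limma, adjusted p = 0.00963), an early-response gene, and Birc3, which is on both lists. The median was 0.11 and 21 of 32 were positive. These 3 were 9.38% of the list, beside the 1.91% of all genes called higher.

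In CHIR99021-treated against untreated BCR-negative cells, 1 of the 13 kinases and adaptors fell, Prkcb, which encodes a protein kinase C form that acts downstream of the BCR (-0.87 ± 0.174; limma, adjusted p = 0.0309). Tax1bp1 (-0.55 ± 0.0588; limma, adjusted p = 0.00404) and Zc3h12a (-0.42 ± 0.0857; limma, adjusted p = 0.0323) fell among the negative regulators, and Cd44 (-0.24 ± 0.0541; limma, adjusted p = 0.0445), an adhesion receptor, among the targets. Those called lower were 7.69% of the kinases and adaptors and 15.4% of the negative regulators. Among the targets the share was 3.1%, near the 1.76% of all genes called lower. No gene of the alternative pathway or of the other NF-κB and IκB proteins was called there, and the medians of the lists lay between -0.12 and -0.01. In BCR-positive cells Tax1bp1 fell as well (-0.51 ± 0.0588; limma, adjusted p = 0.0387), while the adhesion gene Icam1 was at 0.49 ± 0.124 (limma, adjusted p = 0.193) and Prkcb at -0.68 ± 0.174 (limma, adjusted p = 0.196). For BCR loss in CHIR99021 cultures, the difference of effects and the last comparison no gene of these lists was called in limma. The smallest p in these lists was that of Tax1bp1 for BCR loss with CHIR99021 (0.22 ± 0.0588; limma, adjusted p = 0.457), of Ier3 for the difference of effects (-0.59 ± 0.147; limma, adjusted p = 0.928) and of Tax1bp1 for the last comparison (-0.30 ± 0.0588; limma, adjusted p = 0.149).

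**Figure D5:**
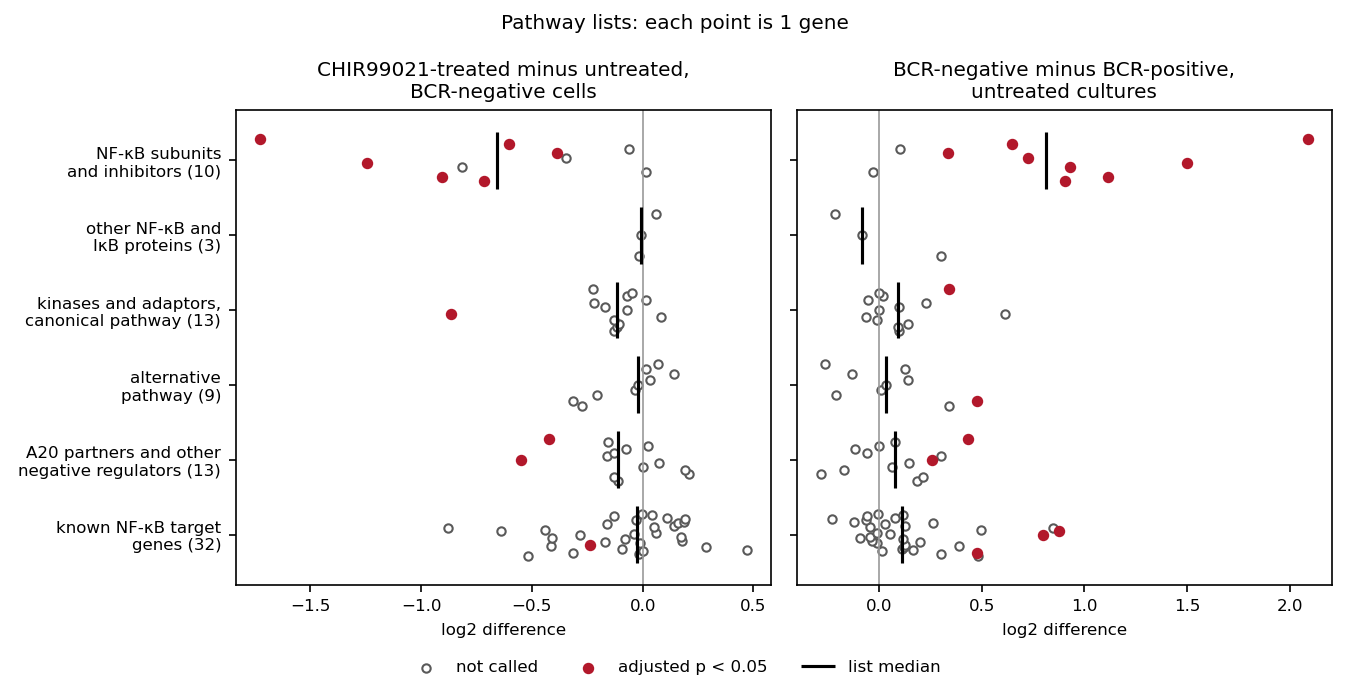
Log2 differences of the 10 genes and of 5 lists of other pathway genes, for CHIR99021-treated minus untreated BCR-negative cells (left) and BCR-negative minus BCR-positive cells of untreated cultures (right). Each point is 1 gene, red where the adjusted p is under 0.05, and the black bar is the list median: 0.81 for the 10 genes with BCR loss, and between -0.08 and 0.11 for the other lists.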

How the data were processed

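The deposited values are log2 expression per probe set, made by the authors with RMA, and the submitters' processing notes also name Affymetrix Power Tools; no version is given in the sources used. RMA sets the probes of all arrays to 1 distribution, which assumes that most transcripts keep their level. The platform annotation gave 1 symbol to 21218 of 35556 probe sets, 21185 matched to RefSeq (GRCm38.p6) by Entrez identifier. The probe set with the highest mean stood for a gene. limma 3.58.1 in R 4.3.3 fitted group and lymphoma over all 12 arrays (6 residual degrees of freedom), with Benjamini-Hochberg adjustment over 18820 genes, and was tested on simulated data. Lymphoma was a block because the labels pair the samples: deviations from group means correlated at r of 0.813 to 0.907 within lymphomas (18 pairs). Each p-value uses a spread per gene that is pooled over all 12 arrays and drawn by limma toward that of the other genes. A gene's SE is therefore the same for every pair of groups, and does not show how 1 change varied among the 3 lymphomas. The number of arrays limits the precision. The genes and lists, and the rule for those named (all 10 members, up to 4 called genes per list or else the gene with the smallest p, and 3 genes per pattern), were chosen with earlier results of these data known. Alternatives changed the block, arrays, dim filter, probe sets, scaling and variance.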

Additional observations from a re-analysis of the deposited data

How the results depend on the processing

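The counts of called genes changed with how the lymphomas entered the fit. In this order, for genes higher with BCR loss in untreated cultures (8 as reported) and lower with CHIR99021 in BCR-negative cells (6), they were 0 and 0 with no replicate block, 4 and 1 with a random replicate block, and 0 and 2 with the block and only the 6 arrays compared. The block was chosen because the labels pair the samples. Leaving out a lymphoma or an array gave 0 to 8 for BCR loss and 0 to 7 for CHIR99021, with 0 in both without lymphoma 2646. These fits have fewer arrays, and beyond that the cause was not tested. No called difference changed sign under any alternative.

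Values that changed sign were all uncalled. With array medians subtracted, BCR loss in CHIR99021 cultures gave -0.020 for Nfkb2 and -0.0085 for Rela. With cyclic loess, Nfkbib gave -0.027 for CHIR99021 in BCR-negative cells and 0.015 for BCR loss in untreated cultures, and Rela gave -0.0028 for CHIR99021 in BCR-positive cells. Leaving out a lymphoma or an array gave ranges that cross 0. For BCR loss in CHIR99021 cultures they were -0.26 to 0.094 for Nfkbid, -0.068 to 0.15 for Nfkb2, -0.017 to 0.12 for Rel and -0.22 to 0.13 for Relb. For CHIR99021 in BCR-negative cells the range was -0.048 to 0.063 for Nfkbib. For CHIR99021 in BCR-positive cells they were -0.065 to 0.51 for Nfkbid, -0.046 to 0.17 for Nfkbiz, -0.064 to 0.060 for Rela and -0.081 to 0.20 for Relb. For the difference of effects the range was -0.13 to 0.0022 for Rela. For BCR-negative cells with CHIR99021 over BCR-positive cells without it they were -0.060 to 0.44 for Nfkbia, -0.083 to 0.032 for Nfkbib, -0.061 to 0.42 for Nfkbid, -0.031 to 0.099 for Rela and -0.082 to 0.15 for Relb. The number of arrays limits how small a difference could be called.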
